A study of Mus musculus with 5 samples.

Results

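The Megf10 locus was taken as the 7 neighbouring bins of 50 kb on mouse chromosome 18 from 57150001 to 57500000 (build mm9), out of 47652 bins compared across the genome and 1757 on chromosome 18. All 7 bins had a value in every library. So did the 40 bins of its flanks, 20 within 1 Mb on the left (lower coordinates) and 20 within 1 Mb on the right. The region was chosen from these data, for its rise in Late over Basal neurons. Its difference between Late and Basal is therefore described below without a test.

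Megf10 encodes a transmembrane receptor with many EGF-like repeats, the mammalian relative of Draper in the fly and of CED-1 in the worm. In the brain it is known mainly from astrocytes, which use it to engulf synapses and cell debris, and in muscle it is known from satellite cells. Compartments are the coarse division of the genome into A, open and gene-rich chromatin, and B, closed and gene-poor chromatin. Hi-C reads them from the first principal component (PC1) of the matrix of contacts between bins. By the convention of HOMER, the tool named in the submitters' processing notes, a positive PC1 marks A and a negative PC1 marks B. PC1 is a score without a physical unit, and it measures neither expression of Megf10 nor the purity of the sort.

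In the gene order of RefSeq on GRCm38.p6, a later build used here for order and names alone, Megf10 is the only protein-coding gene between C330018D20Rik and Prrc1. Further left lie Marchf3, a ubiquitin ligase gene, Lmnb1, which encodes lamin B1 of the nuclear lamina, Tex43, Phax, an adaptor for export of small nuclear RNA, Aldh7a1, an enzyme of lysine breakdown, and Gramd3. Further right lie Ctxn3, Ccdc192, Gm35751, Slc12a2, the chloride importer NKCC1, and Fbn2, which encodes fibrillin 2. Which of these genes fall in which mm9 bin was not analysed here.

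The study's stated interest was in how nuclear organisation changes, here in hippocampal neurons around fear memory. Nuclei of the hippocampus were stained for NeuN, a neuronal nuclear protein, and for GFP, and sorted. The groups were Basal (2 libraries), Early (1 library) and Late (2 libraries), named so in the titles. All carried the same strain, genotype and treatment labels: Arc-driven CreERT2 crossed to a floxed eYFP reporter, genotype +/+, foot shock on day 0, no recall and collection on day 0. The promoter of Arc, an immediate early gene, limits the reporter to cells that were active around the dose of 4-hydroxytamoxifen, but which nuclei of the sort entered each group is not stated. Per the protocol, brains were taken either 1.5 to 2 h or 5 days after fear conditioning. The treatment label does not tell these apart, so Early and Late are used only as the titles give them. Each group was made from 100000 nuclei of 2 animals, whose age and sex the labels do not give. The protocol calls the libraries of a group biological replicates without saying whether they hold different animals, so p-values measure only the spread between these libraries, which may be technical. A larger share of nuclei in another state and a smaller shift in every nucleus cannot be told apart in such pooled libraries.

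The libraries differed in local noise, which was estimated from differences between pairs of libraries. The scatter of single bins in these differences around nearby bins was shared out among the libraries. A true difference between groups that spans few bins also counts as noise here. Early has no replicate, so in Early such a difference cannot be told from noise. This local noise was 0.115 and 0.119 PC1 units in Basal replicates 1 and 2, 0.205 in the Early library, and 0.101 and 0.188 in Late replicates 1 and 2. Early and Late replicate 2 were thus the noisiest by this measure, and the part of that noise in the results below was not tested. The files hold no read counts, so depth is unknown. On chromosome 18 the least similar pair of libraries still correlated at a Pearson r of 0.860 over bins, and no library had its sign inverted there.

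In Basal neurons the locus was a short stretch of B between stretches of A. Mean PC1 over its 7 bins was -0.353 and -0.301 in Basal replicates 1 and 2, 0.335 in the Early library, and 0.928 and 0.727 in Late replicates 1 and 2. The locus thus lay in B in both Basal libraries and in A in the other 3, with the single Early library between the groups on either side. Late averaged 0.828 ± 0.142 and Basal -0.327 ± 0.0370 (SD, n = 2 each), a difference of 1.15, which is the value that chose the region.

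Bin by bin, 1 of 7 bins was in A in each Basal library, 6 of 7 in Early and 7 of 7 in each Late library. Values over the bins ran from -0.729 to 0.0396 in Basal replicate 1 and from -0.604 to 0.292 in Basal replicate 2. They ran from -0.127 to 0.854 in Early, from 0.802 to 1.04 in Late replicate 1 and from 0.455 to 1.11 in Late replicate 2. The lowest Late value of any bin lay above the highest Basal value of any bin, while Early overlapped both. Late replicate 1 was nearly flat across the locus, with an SD over the 7 bins of 0.0832, against 0.219 in Late replicate 2, 0.343 in Early, and 0.262 and 0.296 in the Basal libraries.

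The bins of the locus did not all behave alike. The bin from 57.25 to 57.30 Mb had -0.503 and -0.387 in the Basal libraries, 0.854 in the Early library, and 0.855 and 0.898 in Late. Early stood at the Late level in that bin. The bin from 57.15 to 57.20 Mb, at the left edge, had 0.0396 and -0.258 in the Basal libraries, -0.127 in the Early library, and 0.941 and 0.613 in Late, so there Early stood at the Basal level. The bin from 57.40 to 57.45 Mb had -0.729 and -0.218 in the Basal libraries, 0.626 in the Early library, and 0.993 and 1.11 in Late, and it showed the widest gap between Late and Basal of the 7 (1.53). In the bin at the right edge, from 57.45 to 57.50 Mb, the Basal replicates themselves fell on opposite sides of 0, at -0.345 and 0.292, beside 0.511 in Early and 1.04 and 0.738 in Late.

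**Figure D1:**
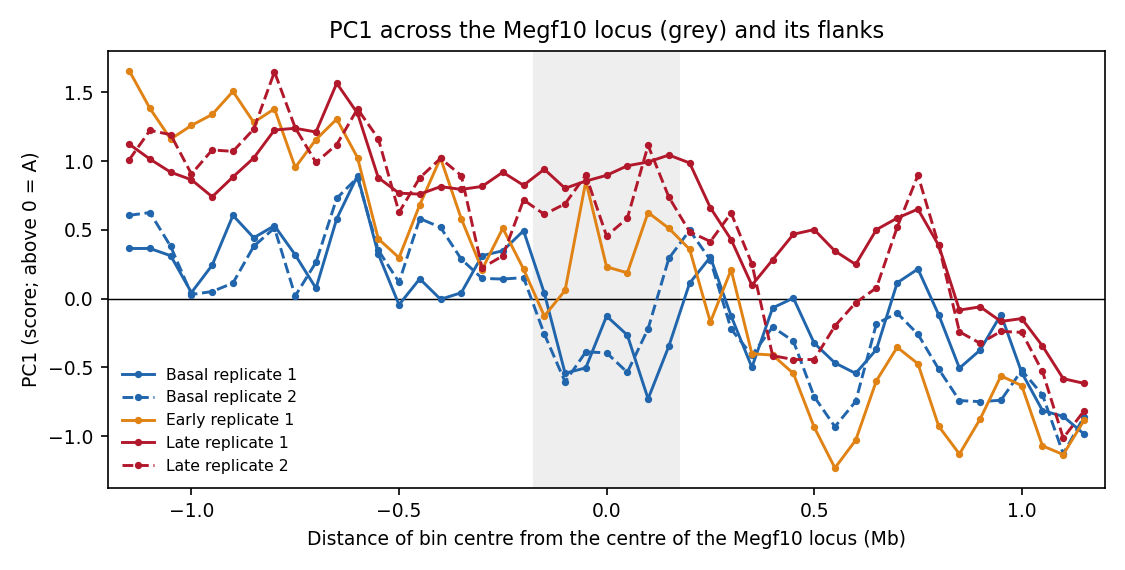
PC1 of each 50 kb bin (score, positive in compartment A) against the distance of the bin from the centre of the Megf10 locus in Mb, with 1 line per library and the locus in grey. Inside the grey band no Late value is below 0.455, no Basal value is above 0.292, and Early lies between them or on one of them.

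The edges of the region follow the threshold that chose it. Late exceeded Basal by 0.89 in the first bin and by 0.92 in the last bin of the locus, and by 0.45 and 0.43 in the bins just outside on the left and on the right. Each bin's PC1 drew on a window of 100 kb, wider than the bin, so a bin and its neighbour are not independent and an edge is known only to about 1 bin.

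The border between A and B lay at different positions in the libraries, and the Late replicates also differed from each other. In the mean of the Basal libraries an A stretch of 3350 kb ended at 57.15 Mb, the B stretch of 350 kb over the locus followed, then an A stretch of 100 kb up to 57.60 Mb. Each Basal library alone had a B stretch of 300 kb there, from 57.20 to 57.50 Mb in replicate 1 and from 57.15 to 57.45 Mb in replicate 2. In Early, A ran without a break from 53.30 to 57.15 Mb, was broken by the 1 bin in B at the left edge, and went on from 57.20 to 57.55 Mb. In Late replicate 1 a single A stretch of 5450 kb covered the locus and ended at 58.15 Mb, and in Late replicate 2 one of 4450 kb ended at 57.70 Mb. A unbroken across the whole locus was thus seen in both Late libraries and in no Basal or Early library. For Late against Basal this largely restates how the region was chosen.

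Set against all windows of 7 bins, the locus held a middling place in every library. Of 44159 autosomal windows, 43.0% lay below the locus in Basal replicate 1 and 44.6% in Basal replicate 2, 59.7% in the Early library, and 74.8% and 69.9% in Late replicates 1 and 2. The locus therefore sat on the weak side of B in Basal neurons and in the ordinary range of A in Late neurons.

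The left flank, the side of C330018D20Rik and Lmnb1 in gene order, was on average in A in all states and higher in Early and Late. Its mean PC1 was 0.319 and 0.345 in the Basal libraries, 0.968 in the Early library, and 0.986 and 0.996 in Late. In this mean Early and Late thus stood about level with each other and well clear of Basal. The gap went beyond the spread between replicates (SD 0.00704 in Late and 0.0178 in Basal, n = 2 each). Bin by bin they were not level, with Late minus Early running from -0.592 to 0.587. Early minus Basal ran from -0.109 to 1.22 over these bins, and Late minus Basal from 0.290 to 1.07. In a limma fit over all bins with Benjamini-Hochberg adjustment at 0.05, 12 of the 20 left bins were higher in Early than in Basal and none was lower, against 9.97% of all bins called higher and 9.98% called lower. Of the same 20 bins, 16 were called higher in Late than in Basal and none lower, against 8.78% and 7.63% of all bins. Since the locus was cut out by calls of that contrast, nothing is read from the second count.

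The left rise did not run smoothly into the locus. In the 3 bins next to it, from 57.00 to 57.15 Mb, mean PC1 was 0.385 and 0.147 in the Basal libraries, 0.313 in the Early library, and 0.853 and 0.417 in Late. Early lay within the Basal pair there, and Late replicate 2 was nearer to Basal replicate 1 than to Late replicate 1. None of these 3 bins passed limma in any of the 3 comparisons. The locus ends where calls of Late over Basal ended, so these bins were in part chosen to be uncalled in that contrast. The 3 bins just right of the locus, up to 57.65 Mb, had means of 0.0959 and 0.185 in the Basal libraries, 0.133 in the Early library, and 0.692 and 0.508 in Late. Against both sets of 3 bins together, the locus was lower by 0.593 and 0.467 in the Basal libraries, and higher by 0.112 in Early and by 0.156 and 0.265 in Late. The dip at the locus was thus present in both Basal libraries and absent in Early and in both Late libraries. Choice of the region and its edges favoured low Basal and high Late values inside it, so this contrast of Basal with Late is partly built in.

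In the right flank, the side of Prrc1, Slc12a2 and Fbn2 in gene order, Early and Late parted. Mean PC1 was -0.298 and -0.463 in the Basal libraries, -0.640 in the Early library, and 0.207 and -0.0640 in Late. Early lay below both Basal libraries and Late above both, although the Late replicates fell on either side of 0 (mean 0.0717 ± 0.192, SD, n = 2). Of the 20 bins, 5 and 2 were in A in Basal replicates 1 and 2, 2 in the Early library, and 13 and 8 in Late replicates 1 and 2.

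**Figure D2:**
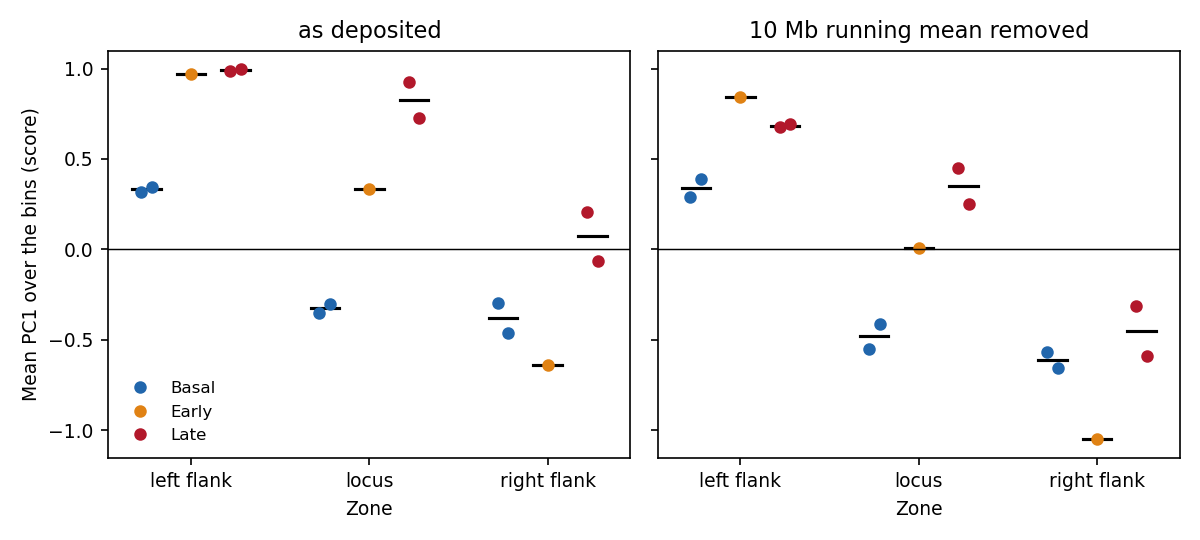
Mean PC1 (score) of the left flank (20 bins), the locus (7 bins) and the right flank (20 bins), as deposited on the left and with a 10 Mb running mean removed on the right, with 1 point per library and a bar at the group mean. As deposited, Early is close to Late in the left flank (0.968 and 0.991), lies between Basal and Late in the locus (0.335) and lies below Basal in the right flank (-0.640).

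The comparison of Early with Basal asks where the Early state departs from Basal. It did not choose the region, but it shares the Basal libraries with the contrast that did, so low Basal values in the locus were partly chosen. In limma, 3 of the 7 locus bins were higher in Early and none lower, against 9.97% and 9.98% of all bins. These 3 were the bin from 57.20 to 57.25 Mb (difference 0.63, SE 0.144, adjusted p = 0.0181), the bin from 57.25 to 57.30 Mb (1.30, SE 0.144, adjusted p = 0.00140) and the bin from 57.40 to 57.45 Mb (1.10, SE 0.208, adjusted p = 0.00903). Of the other 4, 3 had Early above Basal by 0.49 to 0.59 and the left edge bin had a difference of -0.018, all with an adjusted p above the threshold. The mean difference over the locus was 0.66, and 3.31% of autosomal windows of 7 bins, and 5.65% of those on chromosome 18, had one as high. The count was 5 without Late replicate 1, and also 5 without Late replicate 2, which alter only the spread in this contrast, and 2 without Basal replicate 1. It was 1 with all sequences as deposited in the fit, chromosome 7 included. Leaving out a Late library raised the calls over all bins too, so nothing is read from the rise to 5. The single Early library is assumed in the fit to vary like the others.

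In the right flank, 1 of 20 bins passed as lower in Early than in Basal, from 58.10 to 58.15 Mb (difference -0.61, SE 0.181, adjusted p = 0.0461), and none as higher. This 1 of 20 is a smaller share than the 9.98% of all bins called lower in Early. Leaving out either Late library changes only the spread in this contrast and not the differences. More bins then passed here and over all bins alike, so nothing is read from the rise. Without Basal replicate 1, with all sequences in the fit, or with weights by local noise, 0 passed in limma (0, 4 and 2 at an unadjusted p under 0.05). Of the 20 right bins, 9 were called higher in Late than in Basal and none lower, against 8.78% and 7.63% of all bins. This count rose without Late replicate 2 and fell without either Basal library in turn. In the left flank the count of bins called higher in Late also fell without either Basal library. Calls over all bins moved the same way in these fits, so nothing is read from the changes. Without Late replicate 1 the right count fell although calls over all bins rose. With all sequences in the fit, 0 flank bins were called for Late versus Basal (28 at an unadjusted p under 0.05), and 2 left bins were called higher in Early.

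Late was set against Early to ask which bins set these states apart. This contrast shares the Late libraries with the contrast that chose the region. The locus averaged 0.828 in Late and 0.335 in Early, a difference of 0.49. Of autosomal windows of 7 bins, 5.07% had one as high, and of those on chromosome 18, 9.31%. In limma, 2 of its 7 bins were higher in Late and none lower, against 6.28% and 6.44% of all bins. These were the 2 bins of the left edge, from 57.15 to 57.20 Mb (difference 0.90, SE 0.191, adjusted p = 0.0218) and from 57.20 to 57.25 Mb (0.69, SE 0.144, adjusted p = 0.0214). In the bin from 57.25 to 57.30 Mb the difference was 0.023 (SE 0.144), the smallest of the 7. The count rose without Late replicate 2, as did calls over all bins. It was 0 when libraries were weighted by their local noise and 0 with all sequences in the fit (3 at an unadjusted p under 0.05 in each). Over all bins 1078 and 0 were then called, against 6062 in the main fit, so nothing is read from these changes.

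In the right flank 10 of 20 bins were higher in Late than in Early and none lower, the widest gap lying from 58.10 to 58.15 Mb (difference 1.32, SE 0.181, adjusted p = 0.00568). The count rose without Late replicate 2, as did calls over all bins. It was 3 with weights by local noise and 0 with all sequences in the fit (12 at an unadjusted p under 0.05). Over all bins 1078 and 0 were then called, against 6062 in the main fit. Nothing about the flank itself is read from these changes. In the left flank 1 bin was higher and 1 lower. Calls there were lost without either Basal library in turn and rose without Late replicate 2. Calls over all bins moved the same way.

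**Figure D3:**
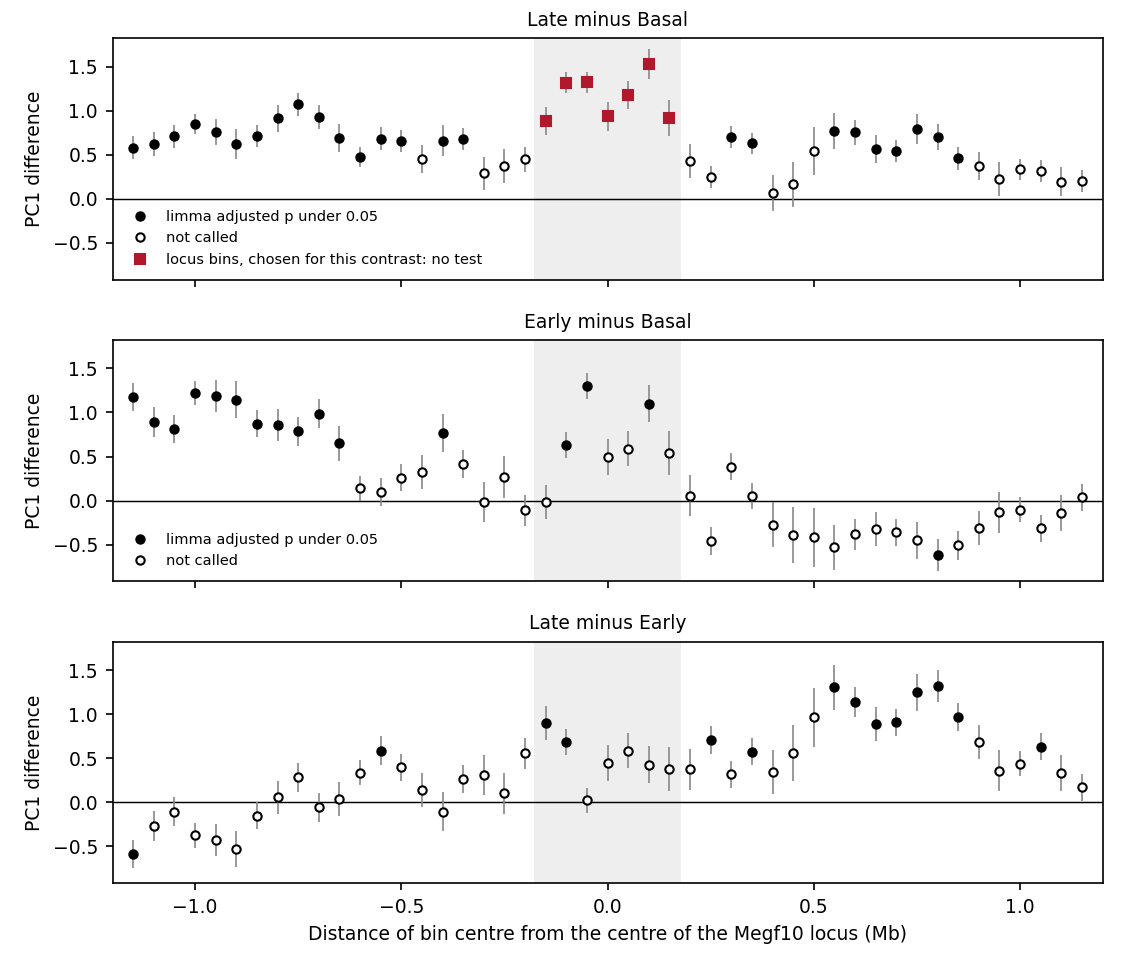
Difference in PC1 of each bin for Late minus Basal, Early minus Basal and Late minus Early, against the distance from the centre of the locus in Mb, with bars of 1 limma SE, filled circles at an adjusted p under 0.05 and squares for the locus bins of the contrast that chose them. Early minus Basal is high on the left, has 3 filled bins in the locus and lies mostly below 0 on the right, where Late minus Early has 10 filled bins.

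PC1 can drift over many megabases of a chromosome, so every value was also taken against a 10 Mb running mean of its own library. At the locus this running mean was itself 0.196 and 0.113 in the Basal libraries, 0.326 in the Early library, and 0.479 and 0.475 in Late. It was thus higher in Late than in Basal by 0.323, a difference that the 10 Mb around the locus, the locus included, showed on average.

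With the running mean removed, the locus stood at -0.549 and -0.414 in the Basal libraries, 0.00878 in the Early library, and 0.449 and 0.252 in Late. The groups kept their order and did not overlap. Late averaged 0.350 ± 0.139 and Basal -0.482 ± 0.0950 (SD, n = 2 each), a difference of 0.832. Early was then close to the mean of the 10 Mb around the locus, above Basal by 0.490 and below Late by 0.342. It was not level with its flanks, which stood at 0.842 on the left and -1.05 on the right in Early. Of autosomal windows of 7 bins, 3.94% had an Early minus Basal difference as high, and of those on chromosome 18, 9.31%. For Late minus Early these shares were 8.19% and 14.3%.

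In limma on these values 2 of the 7 locus bins were higher in Early than in Basal, against 6.02% of all bins called higher. They were the bins from 57.25 to 57.30 Mb (difference 1.14, SE 0.147, adjusted p = 0.00863) and from 57.40 to 57.45 Mb (0.92, SE 0.224, adjusted p = 0.0353). The left edge bin alone was higher in Late than in Early (0.74, SE 0.178, adjusted p = 0.0449), against 3.65% of all bins. For Early versus Basal the count fell without Basal replicate 1, and for Late versus Early it rose without either Late library in turn. Calls over all bins were not set beside these fits, so nothing is read from the changes.

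Removing the running mean set Early above Late in the left flank and narrowed their gap in the right one, to a Late minus Early difference of 0.60, against 0.71 as deposited. The left flank had 0.292 and 0.388 in the Basal libraries, 0.842 in the Early library, and 0.675 and 0.693 in Late. The right flank had -0.570 and -0.658 in the Basal libraries, -1.05 in the Early library, and -0.314 and -0.588 in Late, where Late replicate 2 overlapped the Basal pair and Early lay below all others. In limma, 10 left bins were higher in Early than in Basal and 4 right bins lower, against 6.02% and 5.71% of all bins. The right count rose without either Late library in turn and fell without either Basal library in turn. The left count fell without Basal replicate 1. For Late versus Basal 4 bins were called higher on the left and 0 on the right (6 at an unadjusted p under 0.05), against 6.34% of all bins called higher and 5.61% called lower. The left count rose without Late replicate 1 and fell without either Basal library in turn. On the right some bins passed as higher without either Late library in turn, and some as lower without Late replicate 1. For Late versus Early 6 right bins were higher and 2 left bins lower, against 3.65% and 3.35%. Both of these counts rose without Late replicate 2. Calls over all bins were not set beside the fits with a library left out, so nothing is read from these changes.

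**Figure D4:**
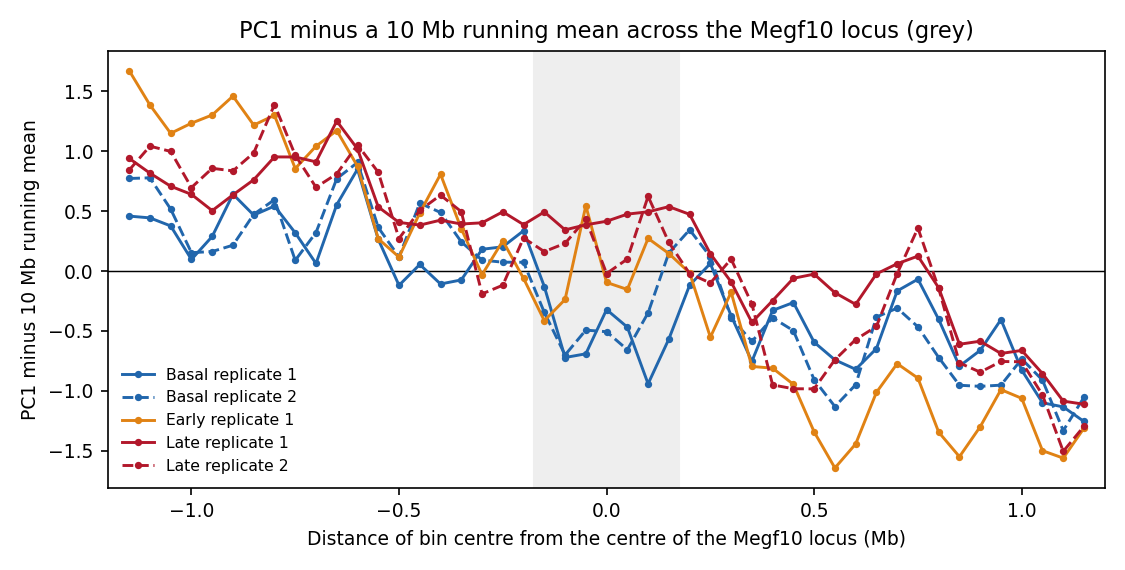
PC1 of each bin minus the 10 Mb running mean of its library, against the distance from the centre of the locus in Mb, with 1 line per library and the locus in grey. Early runs highest at the left end and lowest on the right, and within the locus the mean is 0.00878 in Early, between 0.252 and 0.449 in Late and between -0.549 and -0.414 in Basal.

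The locus can also be set against its own flanks, which takes out any shift they share. Locus minus flanks was -0.364 and -0.242 in the Basal libraries, 0.170 in the Early library, and 0.331 and 0.261 in Late. The sign was the same within each group, and Early stood nearer to Late. The flank mean averaged a higher left and a lower right side in every library. These sides were furthest apart in Early, at 0.968 and -0.640, so the place of Early here depends on that averaging. The means were 0.296 ± 0.0495 in Late and -0.303 ± 0.0865 in Basal (SD, n = 2 each), a difference of 0.599 beside the 1.15 of the locus itself. Part of that difference was built in by the choice of region.

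Elsewhere in the genome, the windows of 7 bins most like the locus were looked for by the Euclidean distance of their 5 library means from those of the locus, among 6721 windows outside it and its flanks. The nearest lay on chromosome 3 from 34100001 to 34450000, at a distance of 0.283, with -0.265 and -0.288 in the Basal libraries, 0.405 in the Early library, and 0.798 and 0.504 in Late. The next lay on chromosome 19 from 56000001 to 56350000 (distance 0.336), chromosome 14 from 118700001 to 119050000 (0.372), chromosome 10 from 25000001 to 25350000 (0.375) and chromosome 8 from 95000001 to 95350000 (0.398). In all 5 windows both Basal libraries were in B, and Early and both Late libraries in A. This follows closely from the search, which picked windows near the locus in those same means, and is no separate result. The Late minus Basal differences of these windows, from 0.833 to 0.927, were all below that of the locus. The locus was chosen for a high value of this difference, so nothing is read from that order. Likeness of this kind, over 5 libraries, says nothing of shared function.

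**Figure D5:**
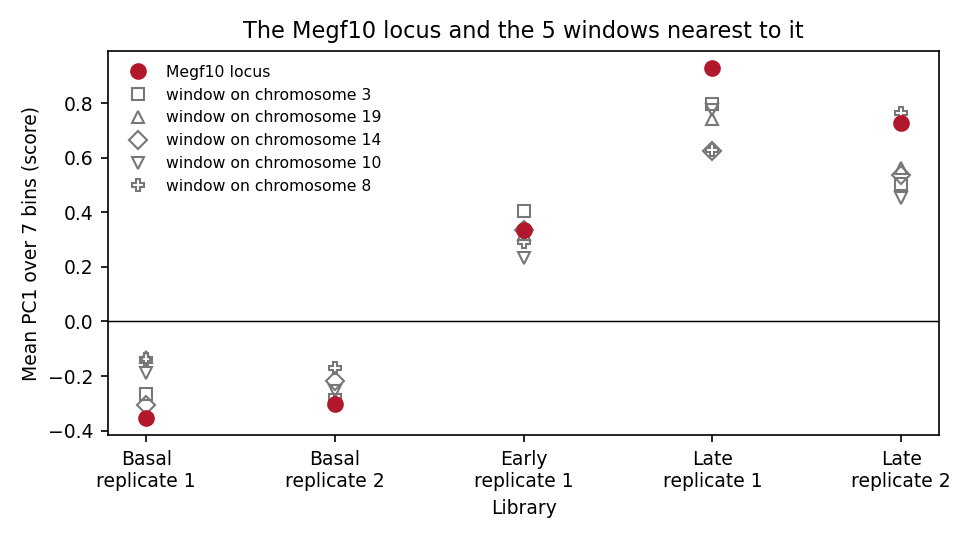
Mean PC1 (score) over 7 bins in each of the 5 libraries for the Megf10 locus (filled circles) and for the 5 windows nearest to it (open symbols, 1 shape per chromosome). The locus has the lowest value of the 6 in both Basal libraries and the highest in Late replicate 1 (0.928), and in Late replicate 2 the window on chromosome 8 lies above it (0.766 against 0.727). The locus was chosen for its rise from Basal to Late, so its place among the 6 follows in part from that choice.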

How the data were processed

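The authors deposited 1 PC1 value per 50 kb bin and library, a score that can be negative, and the submitters' processing notes name HOMER and mm9. For the aligner, versions, read filters and choice of sign, the sources used here give nothing. The SD of a library's values on a chromosome lay between 1.00 and 1.01, so overall compartment strength cannot be compared between libraries.

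Of 50542 bins with a value in all 5 libraries, 47652 on 18 autosomes and X were analysed. Chromosome 7 was left out because its lowest pairwise r was -0.976, under the limit of 0.5. PC1 was fitted with limma 3.58.1 in R 4.3.3, with 1 mean per group, all 5 libraries, 2-sided tests and Benjamini-Hochberg adjustment over all analysed bins at 0.05. Residual degrees of freedom were 2, with a prior of 6.60. The running mean was centred, by position, per chromosome and library. Neighbours, windows and flanks were computed in Python 3.11.15.

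The locus, the lists and most tests were chosen with earlier results of these data known. The rule for names was Megf10, its neighbours in gene order and the 5 nearest windows. Lists of engulfment and cell type marker genes were not analysed here, since they could not be placed on mm9.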

Additional observations from a re-analysis of the deposited data

Results flagged for a closer look

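The departures of Early and of Late from Basal differed from each other, by the limma test of Late against Early, in 10 of the 20 right flank bins, where Late was the higher in each, against 6.28% of all bins called higher and 6.44% called lower in Late. That count rose without Late replicate 2, as did calls over all bins. It was 3 with weights by local noise and 0 with all sequences in the fit (12 at an unadjusted p under 0.05). Over all bins 1078 and 0 were then called, against 6062 in the main fit. Mean PC1 there was 0.0717 in Late and -0.640 in Early, with Basal at -0.380. The same test passed in 2 of the 7 locus bins, both higher in Late, and in 2 of the 20 left flank bins, 1 higher and 1 lower in Late. Early is 1 library, and its local noise was the highest of the 5, by a measure that also counts local differences between groups.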

How the results depend on the processing

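The sign held in all 52 alternative values of the 7 differences of means, and 42 moved by less than 1 SD between replicates. Leaving out a replicate cannot move a difference by more than that SD, which comes from the same replicates. Setting the median of chromosome 18 to 0 cannot change locus minus flanks. Nothing is read from those parts of the 42. With 2 bins added at each end, Late minus Basal was 0.871, Early minus Basal 0.398 and locus minus flanks 0.295. With 1 bin trimmed from each end, Early minus Basal was 0.822 and locus minus flanks 0.700. Locus minus flanks was 0.704 with 2 Mb flanks and 0.740 with 0.15 Mb flanks, a length chosen after seeing the data. With a 5 Mb running mean removed Late minus Basal was 0.694, and with one of 20 Mb removed it was 1.03 and Late minus Early 0.464.

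Counts of calls depended more on the fit. With all sequences as deposited, which changes the shared variance and not the differences, 1 locus bin was called for Early versus Basal, while Late versus Early had 0 (3 at an unadjusted p under 0.05). In the flanks 0, 2 and 0 bins were then called for the 3 comparisons in the order Late versus Basal, Early versus Basal, Late versus Early (28, 17 and 18 unadjusted), and over all bins 0, 2084 and 0 (13365, 14811 and 12635 unadjusted). With weights by local noise, Late versus Early had 0 locus bins, 3 flank bins and 1078 of all bins, and Early versus Basal 8 flank bins and 3505 of all bins. With the running mean removed, 1 locus bin was called for Late versus Early, 4 flank bins for Late versus Basal, and of all bins 5588 for Early versus Basal, while Late versus Early had 3335. At an adjusted p of 0.1, 11999, 14428 and 10609 of all bins were called for Late versus Basal, Early versus Basal and Late versus Early.

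Leaving out 1 library at a time gave 1.05 to 1.26 for Late minus Basal, 0.635 to 0.688 for Early minus Basal, 0.393 to 0.593 for Late minus Early and 0.538 to 0.660 for locus minus flanks. With the running mean removed the 3 differences ran from 0.734 to 0.930, 0.423 to 0.557 and 0.243 to 0.440. With or without the running mean, 1 to 5 locus bins were called for Early versus Basal, while Late versus Early had 1 to 4. In the flanks, as deposited, 10 to 32 were called for Late versus Basal and 8 to 19 for Early versus Basal, while Late versus Early had 9 to 23. With the running mean removed, 1 to 12 were called for Late versus Basal and 4 to 24 for Early versus Basal. Over all bins the ranges were 2641 to 14390, 4248 to 17853 and 3799 to 12608.

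The labels do not say that replicate numbers pair libraries, and the deviations of same-numbered Basal and Late libraries correlated at r 0.0101 over 47652 bins and 0.223 over the 47 bins of the locus and flanks. With a replicate block, 3 locus bins were called for Early versus Basal, while Late versus Early had 4, and over all bins 8752, 9585 and 5818 for the 3 comparisons in the order Late versus Basal, Early versus Basal, Late versus Early. In the right flank the block gave 5 bins lower in Early than in Basal, against 1 without it, while over all bins it gave 4799 against 4754. With the running mean removed the block gave 11 right flank bins against 4, and 5 bins higher in Late than in Basal against 0. Calls over all bins rose as well, to 3919 against 2719 and to 4566 against 3023. The files give no depth, so what depth limits cannot be stated. Early is 1 library, assumed in every fit to vary like the others.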

Other observations

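Between 57.70 and 57.95 Mb, in the right flank, the Late replicates lay in opposite compartments. Late replicate 2 had a B stretch of 250 kb there with a mean PC1 of -0.306, while Late replicate 1 was in A up to 58.15 Mb.

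In the mean of the Basal libraries, 181 stretches of B of 5 to 10 bins lay between stretches of A, the locus among them. All bins of 22 of these (12.2%) were in A in both Late libraries. The Basal mean of 80 of the 181 was as low as that of the locus or lower, and 5 of these 80, the locus included, were wholly in A in both Late libraries.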
